A study of Mus musculus with 144 samples.

Results

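The transcriptome of white adipose tissue (WAT) was compared between nmrHAS2 and CreER mice at 24 months of age. The 12 libraries were chosen by their labels from 144 libraries of 6 tissues: 3 of nmrHAS2 females, 3 of nmrHAS2 males, 3 of CreER females and 3 of CreER males. Mice labelled nmrHAS2 carry the hyaluronan synthase 2 gene of the naked mole-rat, switched on by a tamoxifen-activated Cre recombinase, and CreER mice carry that recombinase without the added gene. The study asked by which mechanisms the added gene acts on life span and late-life health. A further 12 WAT libraries of the same genotypes and sexes at 6 months served for the comparison with younger animals. The labels do not name the strain, fat depot, transgene promoter or tamoxifen schedule, nor which animal gave which library. The tests therefore weigh differences only against the scatter among the libraries at hand, which may be technical.

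Hyaluronan is a very long, unsulphated sugar polymer of the space between cells. It is extruded through the plasma membrane by the synthases Has1, Has2 and Has3, bound by receptors such as CD44 and LYVE1, and cut by hyaluronidases. White fat stores triglyceride in adipocytes and also holds fibroblasts, vessels and many macrophages, whose inflammatory activity is known to grow with age. Its visceral depots lie close to the pancreas, whose acinar cells make digestive enzymes in very large amounts.

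Changes below are log2 changes of nmrHAS2 over CreER with their standard error, both sexes weighted equally, from edgeR's quasi-likelihood test. A gene was called at an adjusted p under 0.05 over all 21109 genes tested. Levels are given as CPM, read counts scaled to a common library size with TMM factors. In whole tissue, fewer cells of a type and less RNA per cell cannot be told apart.

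Total counts per library were 28644468 to 95705289. Defining adipocyte transcripts were high in both genotypes: Adipoq, the hormone adiponectin, had 1338 to 3356 CPM in nmrHAS2 libraries and 1151 to 3389 CPM in CreER libraries. The nmrHAS2 female 3 and CreER female 3 libraries differed from the other 10 in that 66.8% and 67.9% of their values were not whole numbers, against 27.3 to 28.3%. Some libraries of 1 group were alike beyond the others. Each antibody-producing cell clone uses its own V segment, so the levels of V segments vary between animals. Over 155 V segments the correlation of log2 CPM was 0.86 between nmrHAS2 females 1 and 2 and 0.95 between CreER females 2 and 3, whereas the other 64 pairs of libraries reached 0.22 to 0.67. These correlations run across segments of single libraries and are given as a description. In counts of 9708 other genes both pairs differed by more than sampling noise, with a median chi-square of 5.89 and 5.70 against 0.455 for noise alone. For nmrHAS2 female 1 and CreER female 1 it was lower, 3.89. Separate preparations from 1 animal can also differ by more than sampling noise, so this measure cannot tell whether a pair shares an animal. The libraries were kept apart in the main tests, which would count a shared animal as more than 1 replicate. Results are also given with each pair summed into 1 library. The labels do not say whether such libraries share an animal.

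**Figure D1:**
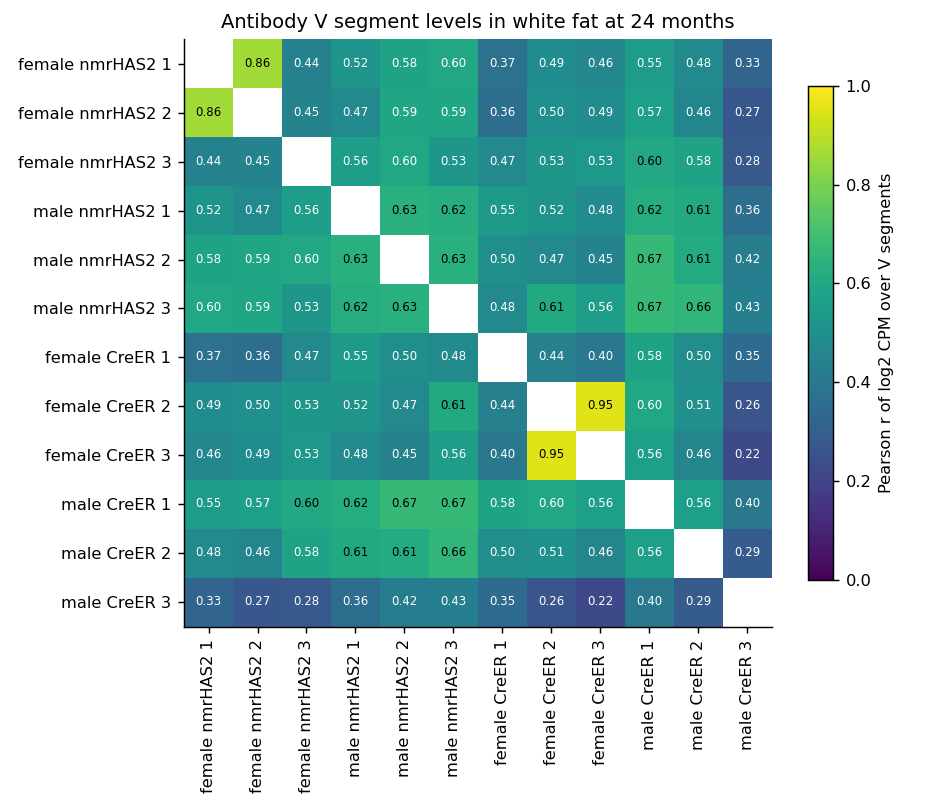
Pearson correlation of antibody V segment levels (log2 CPM over 155 segments) between the 12 WAT libraries at 24 months, nmrHAS2 libraries before CreER libraries on both axes. The bright cells are nmrHAS2 females 1 and 2 (0.86) and CreER females 2 and 3 (0.95), and all other cells are at or under 0.67.

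Between the genotypes, 33 genes were called higher (0.156% of the genes tested) and 1 lower (0.00474%). Of these 34 genes, 28 belong to the list of pancreatic acinar transcripts. The other 6 are the transgene NMR_HAS2, the clock gene Per3, the inhibitor of NF-kB family member Nfkbiz, and 2210010C04Rik, Slc39a5 and Cckar. In all, 0.161% of the genes tested were called. At an unadjusted p under 0.05 there were 887 genes (4.2%), of which 547 (2.59%) were higher and 340 (1.61%) lower, and the median log2 change of all genes tested was 0.0046. The count depended on single libraries. It was 1 without CreER female 2, CreER female 3, CreER male 1 or CreER male 3, 2 without CreER female 1, 17 without CreER male 2, and 27 to 48 without any one nmrHAS2 library. With the alike libraries summed, 1 gene was called, the transgene. DESeq2 called 112 genes, 81 of them outside the acinar list. In females alone edgeR called 3 genes (0.0142%), with 1086 (5.14%) at an unadjusted p under 0.05: Per3 and the transgene higher and Serpina3m, a serine protease inhibitor, lower. In males alone it called none, with 589 (2.79%) at an unadjusted p under 0.05.

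The transgene separated the labelled genotypes completely. NMR_HAS2 had 4.27, 2.93 and 1.35 CPM in nmrHAS2 females and 1.74, 1.97 and 0.69 CPM in nmrHAS2 males, against 0.15, 0.17 and 0.40 CPM in CreER females and 0.11, 0.10 and 0.11 CPM in CreER males. Every nmrHAS2 library lay above every CreER library, which was so for 0.0995% of all genes tested. The mean was 2.16 ± 1.27 CPM in nmrHAS2 and 0.172 ± 0.114 CPM in CreER libraries (SD, n = 6 each). It rose by 3.63 ± 0.42 (adjusted p = 0.0011) and was called whichever library was left out, with a change of 3.42 to 3.94, but not in a fit of the 24-month libraries alone (adjusted p = 0.073). The log2 change was 3.50 ± 0.57 in females (adjusted p = 0.047) and 3.76 ± 0.61 in males (adjusted p = 0.14), and the difference between the sexes, -0.27, did not pass (adjusted p = 1).

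Mouse Has2 itself had 2.69, 1.99 and 2.51 CPM in nmrHAS2 females and 1.33, 2.59 and 1.502 CPM in nmrHAS2 males. In CreER females it had 1.05, 1.61 and 1.44 CPM and in CreER males 0.89, 0.72 and 0.80 CPM. Within each sex the genotypes did not overlap, but nmrHAS2 males overlapped with CreER females. Such separation of 3 from 3 libraries, with nmrHAS2 higher, was seen in 5.01% of all genes in females and 3.45% in males, and with nmrHAS2 lower in 4.49% in females and 2.99% in males. Has2 did not pass over all genes (log2 0.98 ± 0.33, unadjusted p = 0.0072, adjusted p = 0.86). The naked mole-rat and mouse genes are close in sequence, and whether reads were shared between them was not tested. Has3 had a log2 change of 0.77 ± 0.31 (adjusted p = 1) and Has1 of 0.026 ± 0.68.

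Pancreatic enzyme transcripts, treated here as carried over from the neighbouring organ, made up most of the called genes. The acinar list took 6.02%, 4.30% and 0.00172% of all counts in nmrHAS2 females 1, 2 and 3 and 0.0800%, 2.20% and 0.0859% in nmrHAS2 males. In CreER females it took 0.00165%, 0.00134% and 0.00149%, and in CreER males 0.00506%, 0.0130% and 0.00796%. Thus 5 of 6 nmrHAS2 libraries lay above all CreER libraries, and nmrHAS2 female 3 lay at the level of CreER females. The lowest sums came largely from few members. Of 47.3 CPM in CreER male 1, Cuzd1 held 32.8 and Cela1 9.32 CPM, while Pnlip had 0.02 CPM. Cela1 held 12.9, 6.30 and 7.99 CPM of 18.4, 13.1 and 13.7 CPM in CreER females, and 10.9 of 17.5 CPM in nmrHAS2 female 3. Cuzd1 also had 27.8 CPM in CreER male 3 and 94.7 CPM in nmrHAS2 male 3. The 3 libraries with the highest shares were all nmrHAS2, and 2 of them are the alike pair.

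Pnlip, the pancreatic triglyceride lipase, had 2947, 1749 and 0.01 CPM in nmrHAS2 females and 46.1, 819 and 27.8 CPM in nmrHAS2 males. In CreER females its count was 0 in all 3 libraries, and CreER males had 0.02, 4.30 and 1.68 CPM. The summed counts make it at least 41895-fold higher in nmrHAS2 females, taking 3 counts over the CreER females as the limit, and 156-fold higher in nmrHAS2 males (adjusted p = 0.012 over both sexes). Cel, the bile salt-dependent lipase, had 2129, 1300 and 0 CPM in nmrHAS2 females, against a count of 0 in all CreER females. In nmrHAS2 males Cel had 35.1, 559 and 22.6 CPM, against 0, 3.74 and 1.14 CPM in CreER males (adjusted p = 0.014). Cela2a, an elastase, reached 4961 CPM and Cpa1, carboxypeptidase A1, 2350 CPM, both in nmrHAS2 female 1 (adjusted p = 0.017 and 0.0067). Amy2a4, a pancreatic amylase whose near-identical copies make its own level uncertain, held the most counts of the list, with 31872 CPM in that library.

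Of 39 list members tested, 28 were called higher and none lower, and all 39 had an unadjusted p under 0.05. Their median fitted log2 change was 10.7, and 9.48 with CreER counts of under 3 set to 3. Bhlha15 and Nr5a2, transcription factors of acinar cells that other tissues also express, were among the 11 members tested that were not called: Bhlha15 had 547 counts over the nmrHAS2 females and 250 over the CreER females, and Nr5a2 402 and 207. The list was chosen with earlier results of these data known, so its counts describe these libraries. Without the 3 libraries above 10000 CPM, the median of the members tested was 1.89, with nmrHAS2 female 3 as the only nmrHAS2 female. Among genes outside the list, Cckar, the cholecystokinin A receptor of acinar cells, followed the same libraries (20.9, 15.7 and 0 CPM in nmrHAS2 females, against 0.03, 0 and 0.01 CPM in CreER females). Slc39a5, a zinc transporter, did so too, with 8.99, 5.62 and 0 CPM in nmrHAS2 females and 0, 0 and 0.06 CPM in CreER females. The gene model 2210010C04Rik, named after its call was seen, had 1848, 1106 and 0.02 CPM in nmrHAS2 females and 0, 0.09 and 0 CPM in CreER females. The islet hormones Ins1 and Ins2 reached at most 0.65 and 0.52 CPM, both in nmrHAS2 female 1.

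The promoter of Cel is shown as an example of an acinar promoter (RefSeq, GRCm38.p6, chr2:28563354-28563653, minus strand, 250 bases before to 50 after the gene start). Capitals mark CACCTG (searched on both strands), the E-box form bound by the acinar factor PTF1, and TTTCCC (both strands), the other element of that factor.

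Cel: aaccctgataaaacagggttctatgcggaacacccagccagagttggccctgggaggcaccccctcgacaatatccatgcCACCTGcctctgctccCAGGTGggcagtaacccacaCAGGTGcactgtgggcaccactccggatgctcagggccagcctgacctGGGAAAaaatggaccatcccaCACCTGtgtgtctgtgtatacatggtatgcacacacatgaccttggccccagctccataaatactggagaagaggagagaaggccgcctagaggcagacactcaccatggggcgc

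It holds CACCTG at -170, -154, -134 and -65 and TTTCCC at -86 from the gene start. Both elements together occur in 4.86% of all 32851 promoters and in 5 of the 30 promoters found for acinar list members tested. These are matches of letters and say nothing of binding here.

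The proportions of the enzymes to each other were compared in the 6 WAT libraries with at least 100 Pnlip counts (5 nmrHAS2 and CreER male 2) and in the 23 intestinal libraries that met the same limit. Relative to Pnlip, Cel counts were 0.683 to 0.870 in WAT and 0.607 to 0.987 in intestine, and Cpa1 counts 0.689 to 0.947 in WAT and 0.606 to 0.955 in intestine. Cela3b and Clps, the cofactor of the lipase, likewise lay within the intestinal range. Reg2, a secreted protein of the regenerating family, Cela2a and Cckar did not. Slc39a5 lay below the lowest intestinal library (0.00416) in every WAT library but nmrHAS2 male 3 (0.0194). The Reg2 ratio was 0.293, 0.307, 0.354 and 0.327 in nmrHAS2 females 1 and 2 and nmrHAS2 males 2 and 3 and 0.298 in CreER male 2, above all 23 intestinal libraries (at most 0.0775). In the same 5 WAT libraries the Cela2a ratio was 1.68 to 1.93, against at most 1.56 in intestine, and the Cckar ratio 0.0071 to 0.0107, against at most 0.0060 in intestine. CreER male 2 had 131 Pnlip counts, nmrHAS2 male 3 had 927 and nmrHAS2 male 1 had 1774. The Cckar and Slc39a5 ratios of these libraries therefore rest on few reads, those of CreER male 2 (0.0076 and 0) most of all. In nmrHAS2 male 1 the Reg2 ratio was 0.0141, within the intestinal range, and the Try4 ratio was 0.229, below the lowest intestinal library (0.386) and the other 5 WAT libraries (0.557 to 0.752). Its Cela2a, Cpb1 and Cckar ratios, 0.92, 0.639 and 0.0013, were also the lowest in WAT, and the Cpb1 ratio lay below the lowest intestinal library (0.693). Thus nmrHAS2 male 1 stood apart from the other 5 WAT libraries in Reg2, Try4, Cela2a, Cpb1 and, from few reads, Cckar.

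**Figure D2:**
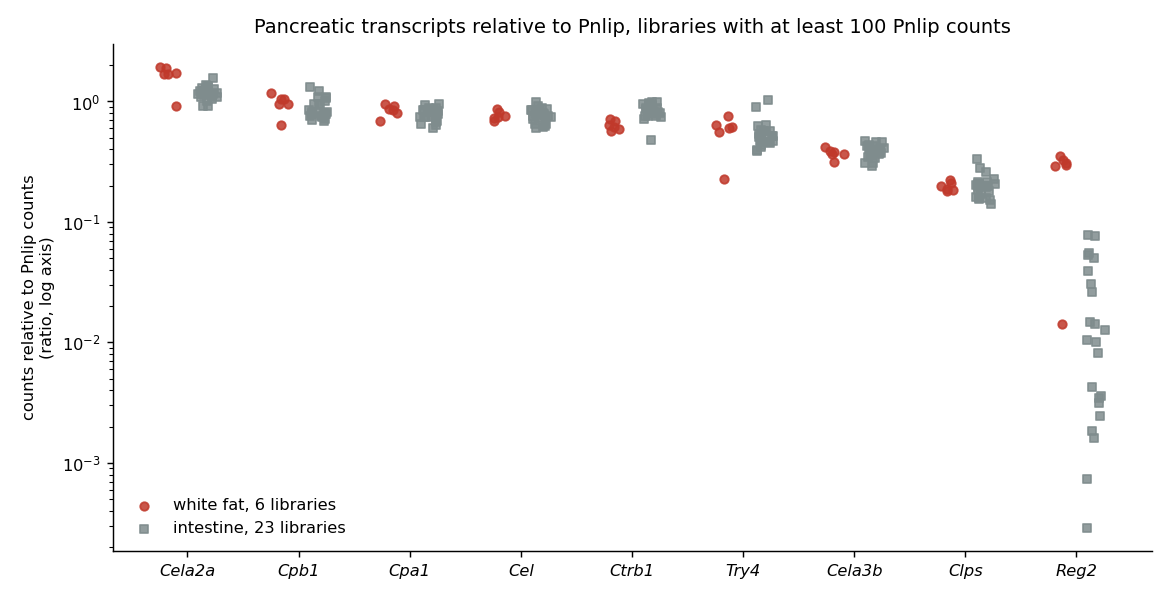
Counts of 9 pancreatic transcripts relative to Pnlip counts (log axis), 1 point per library, in 6 WAT libraries (left, circles) and 23 intestinal libraries (right, squares). Cel, Cpa1, Cela3b and Clps overlap between the tissues, while the Reg2 ratio of 5 WAT libraries (0.293 to 0.354), like their Cela2a ratio (1.68 to 1.93), lies above every intestinal library and that of nmrHAS2 male 1 (0.0141) does not.

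Per3, a period gene of the circadian clock, was called higher in nmrHAS2. It had 26.8, 26.05 and 35.0 CPM in nmrHAS2 females and 26.4, 19.9 and 31.0 CPM in nmrHAS2 males, against 11.4, 8.83 and 8.53 CPM in CreER females and 25.7, 15.98 and 23.6 CPM in CreER males. The females did not overlap between genotypes, with all nmrHAS2 libraries higher, and the males did overlap. It rose by 0.93 ± 0.15 (adjusted p = 0.0088), with 27.5 ± 5.10 CPM in nmrHAS2 and 15.7 ± 7.48 CPM in CreER libraries (SD, n = 6 each). The log2 change was 1.62 ± 0.22 in females and 0.24 ± 0.21 in males. The difference between the sexes, 1.37, did not pass in edgeR (adjusted p = 0.38) and passed in DESeq2 (adjusted p = 0.0074). With the pancreatic level as a covariate Per3 stayed called (log2 1.20, adjusted p = 0.022). That level was above every CreER library in all nmrHAS2 libraries but female 3, so this fit can hardly separate it from the genotype. Without the 3 libraries rich in pancreatic transcripts the log2 change of Per3 was 1.13. There nmrHAS2 female 3, which had the highest Per3 level, was the only nmrHAS2 female. Per3 was not called with the alike libraries summed (log2 0.93, adjusted p = 0.12), nor in a fit of the 24-month libraries alone, which called no gene. The acinar genes ranked above Per3 lowered its adjusted p in the main fit, since the adjustment runs over all genes together. With the acinar genes removed before scaling and testing, 2 genes were called, both higher. Leaving out 1 library at a time kept the call of Per3 in 7 of 12 fits (adjusted p 0.010 to 0.092).

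Nfkbiz was the gene that fell. It encodes a nuclear member of the IkB family that is induced by interleukin-1 and Toll-like receptor signals and controls a set of secondary inflammatory genes. Its level was 34.6, 30.7 and 24.7 CPM in nmrHAS2 females and 23.7, 24.5 and 18.6 CPM in nmrHAS2 males, against 42.8, 53.4 and 50.2 CPM in CreER females and 42.3, 30.9 and 25.3 CPM in CreER males. Within each sex every nmrHAS2 library was lower than every CreER library, but nmrHAS2 females overlapped with CreER males. Nfkbiz fell by 0.63 ± 0.12 (adjusted p = 0.032), to 26.1 ± 5.68 CPM in nmrHAS2 against 40.8 ± 10.9 CPM in CreER libraries (SD, n = 6 each). The change was -0.70 ± 0.17 in females and -0.56 ± 0.17 in males. The call was kept in 2 of 12 fits with 1 library left out (adjusted p 0.033 to 0.14, log2 -0.72 to -0.53) and was lost with the alike libraries summed (log2 -0.65, adjusted p = 0.19). It was also lost with the acinar genes removed before scaling and testing, where 2 genes were called, both higher. A fit of the 24-month libraries alone called no gene, so the call of Nfkbiz was lost there too. Without the 3 pancreas-rich libraries the change was -0.81, with nmrHAS2 female 3 as the only nmrHAS2 female.

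**Figure D3:**
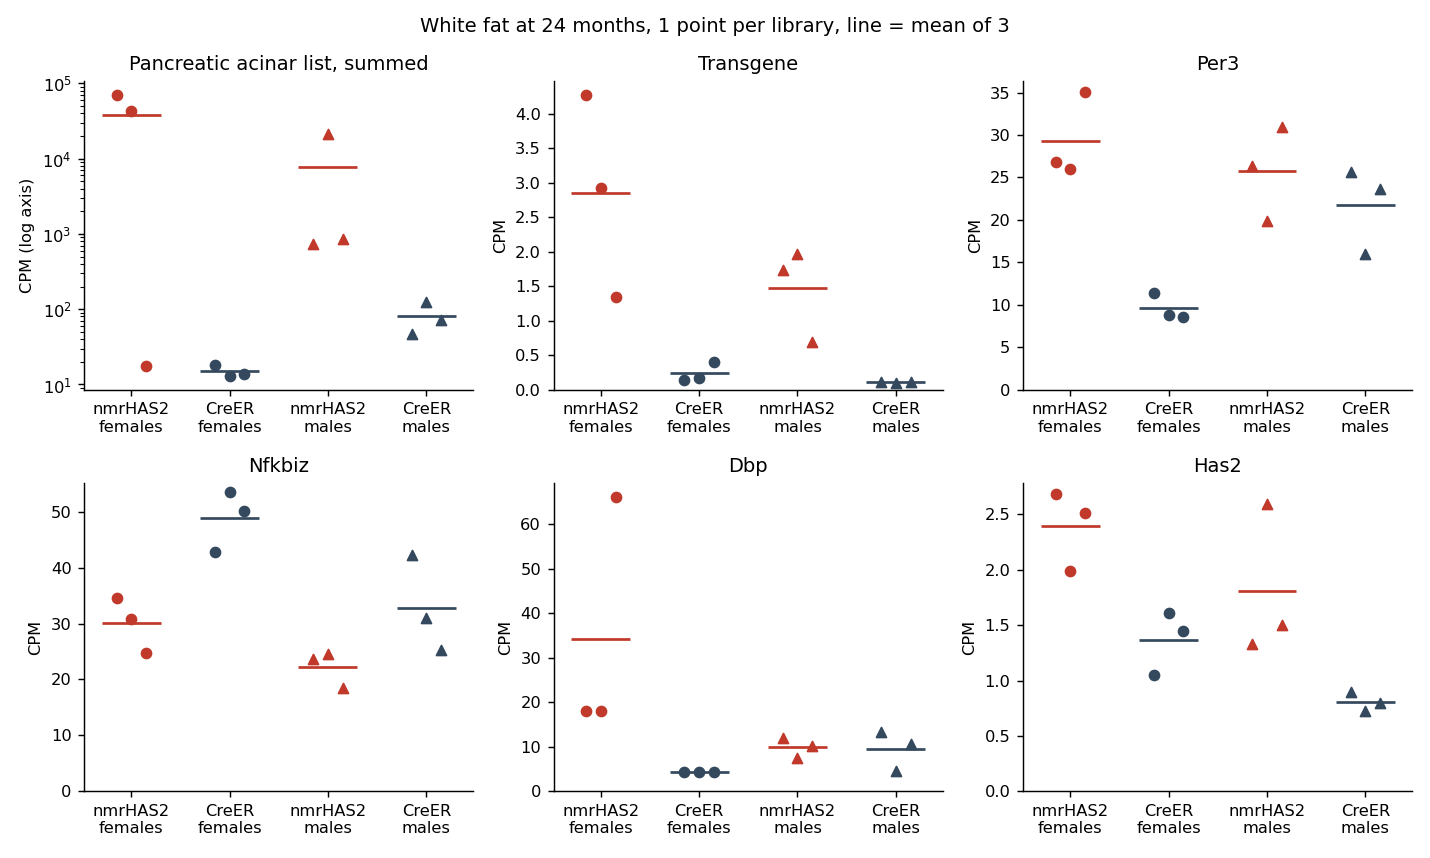
Levels in the 12 WAT libraries at 24 months, with nmrHAS2 (red) left of CreER (dark) in each sex, circles for females, triangles for males and a line at the mean of 3 libraries. The acinar sum is on a log axis and the other panels are linear CPM from 0. The transgene and, within each sex, Nfkbiz and Has2 separate the genotypes, while Per3 and Dbp do so in females and overlap in males.

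Per3 is part of the circadian clock, in which CLOCK and BMAL1 (Arntl) or NPAS2 drive E-box genes, the period and cryptochrome proteins block them, and REV-ERB proteins (Nr1d1, Nr1d2) repress Arntl. Dbp, Tef and Hlf are output factors that act through D-boxes, which NFIL3 opposes. The promoters of Per3 and Tef are shown because the D-box TTATGTAA and the E-box CACGTG, both searched on both strands, stand in capitals there (RefSeq, GRCm38.p6, Per3 at chr4:151044616-151044915, minus strand, and Tef at chr15:81802423-81802722, plus strand).

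Per3: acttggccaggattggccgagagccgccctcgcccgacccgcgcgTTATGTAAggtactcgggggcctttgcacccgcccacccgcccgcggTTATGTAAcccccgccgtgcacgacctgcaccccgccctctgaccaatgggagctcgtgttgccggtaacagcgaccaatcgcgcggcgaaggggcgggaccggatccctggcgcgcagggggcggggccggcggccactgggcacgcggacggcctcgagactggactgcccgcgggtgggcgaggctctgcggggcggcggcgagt

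Tef: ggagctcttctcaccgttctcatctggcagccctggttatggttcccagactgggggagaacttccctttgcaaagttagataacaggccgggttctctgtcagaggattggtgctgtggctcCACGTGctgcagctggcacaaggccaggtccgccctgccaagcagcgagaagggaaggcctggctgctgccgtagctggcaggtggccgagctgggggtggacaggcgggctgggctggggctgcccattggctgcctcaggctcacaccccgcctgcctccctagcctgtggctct

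Per3 holds the D-box at -205 and -158, a motif found in 0.938% of all 32851 promoters. Among the 16 clock gene promoters in the table it was found in 1, that of Per3. Tef holds the E-box at -127, a motif found in 7.15% of all promoters and in 5 of the 16 clock gene promoters in the table. The matches describe letters only.

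The other clock genes were looked at after the call of Per3, so their values are a description. Of 19 clock and output genes tested, Per3 was called. At an unadjusted p under 0.05, 6 were higher (31.6%) and 2 lower (10.5%), against 2.59% and 1.61% of all genes. Their median log2 change was 0.66 in females and 0.07 in males, against 0.012 and 0.0077 for all genes. Dbp, an output factor, had 18.1, 18.05 and 66.3 CPM in nmrHAS2 females, against 4.39, 4.46 and 4.41 CPM in CreER females. Its male values overlapped, with 12.1, 7.56 and 10.3 CPM in nmrHAS2 and 13.4, 4.50 and 10.6 CPM in CreER libraries (log2 over both sexes 1.51 ± 0.36, adjusted p = 0.20). Tef showed the same order, with 77.7, 72.3 and 123 CPM in nmrHAS2 females and 38.7, 37.2 and 39.5 CPM in CreER females. Tef was not called (log2 0.76 ± 0.15, adjusted p = 0.052), and the acinar genes ranked above Tef lowered that adjusted p. Without the 3 pancreas-rich libraries its log2 change was 1.06, with nmrHAS2 female 3 as the only nmrHAS2 female. Per2 was above all CreER libraries in every nmrHAS2 library, at 14.3 to 18.6 CPM in the nmrHAS2 group and 9.06 to 12.3 CPM among CreER (log2 0.64 ± 0.18, adjusted p = 0.54).

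Arntl, the positive arm of the clock, lay the other way in females. It had 18.7, 18.9 and 8.56 CPM in nmrHAS2 females and 32.3, 32.7 and 29.3 CPM in CreER females, so that the groups did not overlap. In males the nmrHAS2 libraries had 28.9, 27.8 and 29.4 CPM and the CreER libraries 27.0, 33.4 and 26.3 CPM. The log2 change of Arntl was -1.04 ± 0.30 in females and -0.008 ± 0.29 in males, and over both sexes its adjusted p was 1. The labels do not give the hour of tissue collection.

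**Figure D4:**
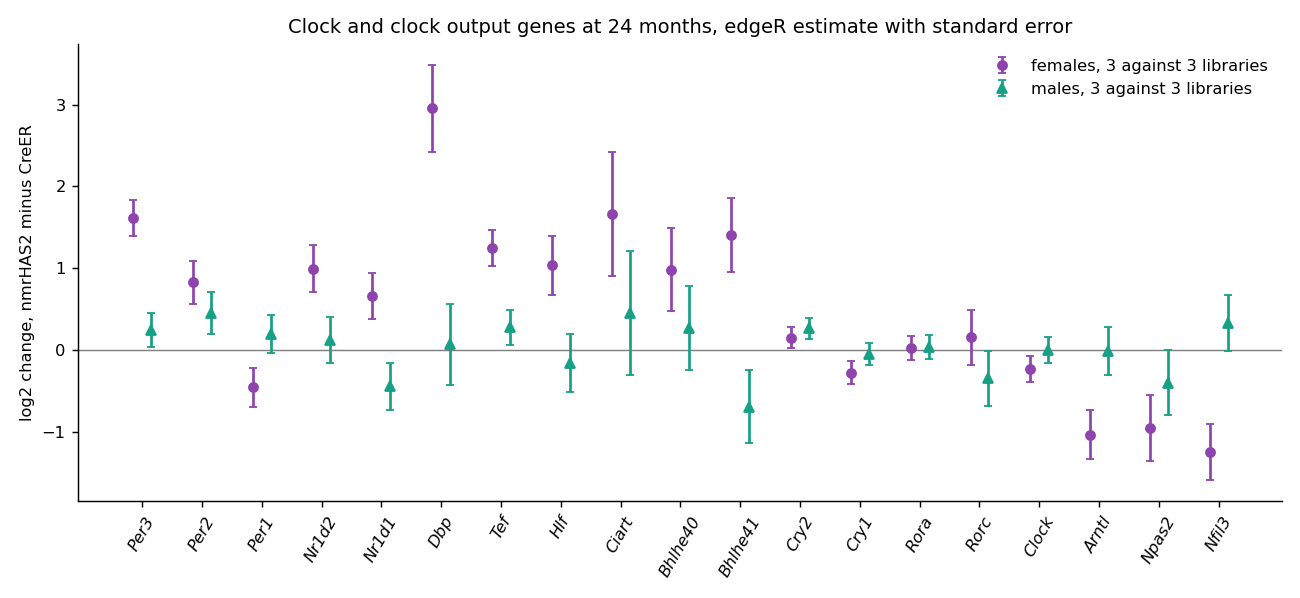
Log2 change of nmrHAS2 over CreER for 19 clock and clock output genes at 24 months, edgeR estimate with its standard error, females (circles) left of males (triangles). In females Dbp, Per3, Tef and Nr1d2 lie above 0 and Arntl, Npas2 and Nfil3 below it, whereas the male estimates stay closer to 0.

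Other uncalled genes are given by their values. Their adjusted p-values were lowered by the 28 acinar list members called, which rank above them. Gpr176, an orphan receptor known from the central clock, was lower in every nmrHAS2 library (2.06 to 5.17 CPM) than in every CreER library (5.21 to 10.99 CPM), an order that 0.0284% of all genes showed. Its log2 change was -1.16 ± 0.23 (adjusted p = 0.051). Angptl2, a secreted protein of the angiopoietin-like family made in fat, had 96.4 to 178 CPM in the nmrHAS2 group and 67.3 to 114 CPM among CreER libraries (log2 0.60 ± 0.13, adjusted p = 0.095). The genotypes overlapped in males and not in females. Arfgap3, a regulator of Golgi transport, was at 29.3 to 33.1 CPM in the nmrHAS2 group and 22.2 to 29.1 CPM among CreER libraries, with no overlap (log2 0.27 ± 0.066, adjusted p = 0.24). Gask1a had a log2 change of 0.88 ± 0.19 (adjusted p = 0.095) and Rxfp1, the relaxin receptor, a higher level in nmrHAS2 females (5.58 to 18.1 CPM) than in CreER females (0.69 to 0.81 CPM). Reg3b, Klk1b5 and Tff2, all secreted by glands, followed the pancreas-rich libraries, at 69.8, 16.3 and 28.7 CPM in nmrHAS2 female 2 and 0.10 CPM or less in every CreER library. Aqp12, the water channel of acinar cells, had a count of 0 in all 6 CreER libraries and 0.08 to 6.41 CPM in nmrHAS2 libraries, with 5.85 CPM in nmrHAS2 female 3, where Pnlip was at 0.01 CPM.

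Of the uncalled genes with the smallest p-values and lower values in nmrHAS2, Cxcl13, Cd300e and Lipg varied strongly within CreER. Cxcl13, the chemokine that draws B cells, had 64.0, 51.1 and 53.4 CPM in nmrHAS2 females and 22.4, 39.4 and 10.7 CPM in nmrHAS2 males. In CreER females it had 29.4, 285 and 275 CPM and in CreER males 303, 26.5 and 75.5 CPM. The high values were those of the alike pair CreER females 2 and 3 and of CreER male 1 (log2 -2.15 ± 0.65, adjusted p = 0.69). Cxcl13 was the 1 lower member at an unadjusted p under 0.05 of the lymph node stroma and follicle list, whose median was 0.016, with 5 of 9 above 0. Cd300e, a myeloid receptor, and Lipg, endothelial lipase, were high in the same 3 CreER libraries (14.6, 18.2 and 7.69 CPM, and 15.1, 21.5 and 47.4 CPM), against at most 2.56 and 4.75 CPM in nmrHAS2 libraries. Vsig4, a complement receptor of resident macrophages, had 4.85 to 5.06 CPM in nmrHAS2 females and 25.9 to 28.2 CPM in CreER females, while the males overlapped (log2 -1.38 ± 0.38, adjusted p = 0.45). Pde1b, Exoc1, Lmbr1, Bcl2l1 and St3gal5 had log2 changes between -0.60 and -0.17 with adjusted p-values of 0.26 to 0.74.

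None of the members of the adipocyte list was called. Of 20 tested, 14 had a log2 change above 0 and 2 an unadjusted p under 0.05, both higher (10%, against 2.59% of all genes). The median of the list was 0.21. It was 0.12 to 0.35 with 1 library left out, lowest without nmrHAS2 male 1 and highest without CreER female 1. Plin1, the coat protein of lipid droplets, had 489 to 1028 CPM in the nmrHAS2 group and 382 to 693 CPM among CreER libraries (log2 0.37 ± 0.24). Leptin (Lep) and Fabp4 had log2 changes of 0.022 ± 0.43 and 0.035 ± 0.24. Slc2a4, the insulin-dependent glucose transporter, had 49.2 to 121 CPM in the nmrHAS2 group and 39.5 to 74.6 CPM among CreER libraries (log2 0.66 ± 0.27, unadjusted p = 0.022).

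Genes of fatty acid and triglyceride synthesis had the highest median of the pathway lists, and the values rested on few libraries. Of 21 tested none was called, and the median log2 change was 0.60. At an unadjusted p under 0.05, 9 were higher (42.9%, against 2.59% of all genes) and none lower. Fasn, fatty acid synthase, had 222, 311 and 6396 CPM in nmrHAS2 females and 579, 195 and 2437 CPM in nmrHAS2 males, against 518, 1001 and 841 CPM in CreER females and 215, 227 and 508 CPM in CreER males. The high values were those of nmrHAS2 female 3 and nmrHAS2 male 3, and the other 4 nmrHAS2 libraries lay within or near the CreER range. The log2 change of Fasn was 1.66 ± 0.74 (unadjusted p = 0.038) and 0.089 without nmrHAS2 female 3. Dgat2, which completes triglyceride synthesis, had 1063 and 488 CPM in the same 2 libraries and 107 to 233 CPM in the other 4, against 84.6 to 209 CPM in CreER libraries (log2 1.51 ± 0.53). Without nmrHAS2 female 3 the median of the list was 0.17. With the pancreatic level as a covariate it was 1.74 and 6 members were called, among them Fasn and Dgat2 (adjusted p = 0.045 and 0.032). That level was above every CreER library in all nmrHAS2 libraries but female 3, which had the highest Fasn and Dgat2. The fit can therefore hardly separate the pancreatic level from the genotype. Scd1, the most abundant desaturase of fat, had a log2 change of 0.15 ± 0.35.

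Thermogenic genes were low in level, and their changes lay above 0. All 15 tested had a log2 change above 0, with none called and a median of 0.42. At an unadjusted p under 0.05, 5 were higher (33.3%, against 2.59% of all genes). The median was 0.14 without nmrHAS2 male 3, 0.65 without CreER female 1 and 0.90 without CreER male 3. Dio2, the enzyme that activates thyroid hormone in brown fat, ranged over 0.60 to 5.62 CPM for nmrHAS2 and 0.09 to 0.35 CPM for CreER libraries, with no overlap (log2 3.02 ± 0.86, adjusted p = 0.52). Ucp1, the uncoupling protein of brown and beige adipocytes, had 2.62, 1.15 and 3.68 CPM in nmrHAS2 females and 0.68, 0.74 and 2.19 CPM in nmrHAS2 males. In CreER females it had 0.26, 0.06 and 0.06 CPM and in CreER males 0.25, 0.16 and 1.04 CPM (log2 2.83 ± 1.01, unadjusted p = 0.012, adjusted p = 0.94). Females did not overlap between genotypes and males did. Cox8b, a muscle and brown fat subunit of cytochrome oxidase, had 4.02 to 8.12 CPM in the nmrHAS2 group and 1.15 to 5.67 CPM among CreER libraries. All 36 nuclear oxidative phosphorylation genes tested had a log2 change above 0, with none at an unadjusted p under 0.05 and a median of 0.14, where 51.1% of all genes were above 0. Without nmrHAS2 male 3 that median was 0.085.

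**Figure D5:**
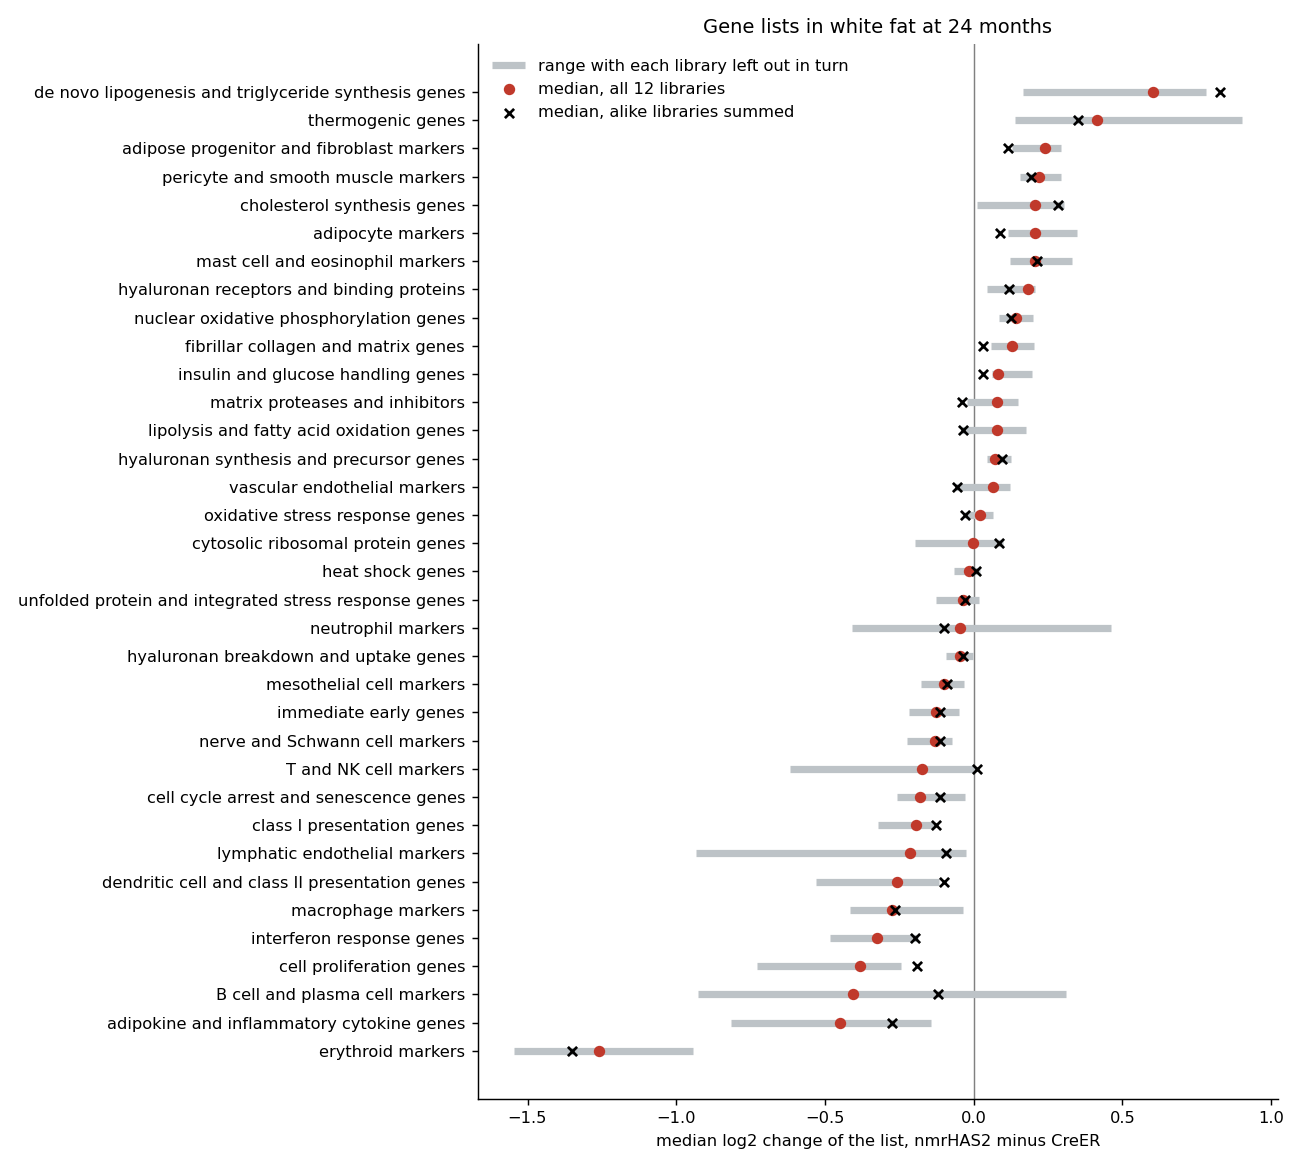
Median log2 change of nmrHAS2 over CreER for lists of cell type markers and pathways at 24 months (red points), with the range when each library was left out in turn (grey) and the value with the alike libraries summed (crosses). Lipid synthesis (0.60) and thermogenic genes (0.42) are at the top and inflammatory cytokines (-0.45) and erythroid markers (-1.26) at the bottom.

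The cytokine, interferon, macrophage and antigen presentation lists had medians below 0, whereas the mast cell and eosinophil list had a median of 0.20, with 9 of 10 above 0 and 1 higher at an unadjusted p under 0.05, Cpa3, a mast cell carboxypeptidase (log2 0.36 ± 0.15). None of the 24 adipokine and inflammatory cytokine genes tested had a log2 change above 0, none was called and the median was -0.45. At an unadjusted p under 0.05, 3 were lower (12.5%, against 1.61% of all genes). Cxcl1, a chemokine for neutrophils, ranged over 0.70 to 1.62 CPM for nmrHAS2 and 1.20 to 3.22 CPM for CreER libraries (log2 -0.93 ± 0.30, unadjusted p = 0.0065). Vcam1, an adhesion molecule for leukocytes, had 93.2 to 109 CPM in nmrHAS2 females and 145 to 261 CPM in CreER females and overlapped in males (log2 -0.70 ± 0.26). The cytokine median was -0.82 without nmrHAS2 male 2, -0.72 without nmrHAS2 female 3 and -0.14 without CreER male 1. It was -0.24 in females and -0.60 in males. The summed level of the list was 525 to 811 CPM in nmrHAS2 females and 986 to 1950 CPM in CreER females. In males the sums did not follow the median, with 1631, 3043 and 2186 CPM in nmrHAS2 and 1860, 921 and 1762 CPM in CreER libraries. Of 23 interferon response genes 0 were above 0, and 3 were lower at an unadjusted p under 0.05 (13.0%, against 1.61% of all genes). The interferon median was -0.33, and -0.19 without CreER female 3. Usp18, which restrains interferon signalling, had a log2 change of -0.52 ± 0.19 and Oasl1 one of -0.82 ± 0.36.

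Macrophage markers had a median of -0.28, with 1 of 21 above 0, and the median was -0.42 without nmrHAS2 male 2 and -0.035 without CreER male 1. Their summed level was 3431 to 6909 CPM in the nmrHAS2 group and 3043 to 7028 CPM among CreER libraries, so the groups overlapped almost entirely. Fcgr4, an activating antibody receptor, had 18.2, 10.6 and 37.6 CPM in nmrHAS2 females and 4.29, 13.9 and 3.57 CPM in nmrHAS2 males, against 13.2, 114 and 131 CPM in CreER females and 51.0, 2.66 and 11.6 CPM in CreER males (log2 -1.77 ± 0.61, unadjusted p = 0.0095). Its highest values were again those of CreER females 2 and 3 and CreER male 1. Class II presentation genes had a median of -0.26 and cell proliferation genes one of -0.38, with 0 of 15 and 0 of 20 above 0. Without nmrHAS2 female 3 these medians were -0.53 and -0.73. The class II median was -0.40 without nmrHAS2 male 2, -0.41 without CreER female 1 and -0.12 without CreER male 3, and the proliferation median -0.24 without nmrHAS2 female 2. With the alike libraries summed the class II and proliferation medians were -0.10 and -0.19, and that of the cytokine list was -0.28. With the pancreatic level as a covariate the class II, proliferation and interferon medians changed sign, to 0.23, 0.19 and 0.028, and so did those of class I presentation genes (0.059, against -0.20), T and NK cell markers (0.36, against -0.17) and B cell and plasma cell markers (0.22, against -0.41). The cytokine and macrophage medians were then -0.20 and -0.52. The pancreatic level was above every CreER library in all nmrHAS2 libraries but female 3, so this fit can hardly separate it from the genotype.

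Erythroid markers had the lowest median, -1.26, with none called. At an unadjusted p under 0.05, 5 of 9 were lower (55.6%, against 1.61% of all genes). Hbb-bs, a beta globin, had 360, 296 and 98.2 CPM in nmrHAS2 females and 90.3, 61.9 and 65.3 CPM in nmrHAS2 males. In CreER females it had 285, 346 and 440 CPM and in CreER males 277, 632 and 24.5 CPM. The lowest value was that of CreER male 3.

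None of the genes that handle hyaluronan was called. Among 14 genes of its synthesis and precursors the median was 0.07, and Has2 and Has3 were the 2 with an unadjusted p under 0.05. Among 11 genes of breakdown and uptake the median was -0.05. Lyve1, the uptake receptor of lymphatic vessels and resident macrophages, had 77.9, 84.5 and 74.4 CPM in nmrHAS2 females and 184, 192 and 197 CPM in CreER females, with no overlap. In males it had 255, 128 and 121 CPM in nmrHAS2 and 152, 128 and 150 CPM in CreER libraries (log2 over both sexes -0.52 ± 0.18, adjusted p = 0.87). Among 21 receptors and binding proteins the median was 0.18, with 14 above 0 and 4 higher at an unadjusted p under 0.05 (19.0%, as against 2.59% of all genes). The 4 were Habp2, Itih1, Ncan and Hapln1, all at low levels. Habp2, a hyaluronan-binding serine protease, had 2.24, 1.36 and 0.06 CPM in nmrHAS2 females and 0.18, 0.49 and 2.04 CPM in nmrHAS2 males. In CreER females it had 0.03, 0 and 0 CPM and in CreER males 0.22, 0 and 0.40 CPM (log2 4.52 ± 1.13, adjusted p = 0.26). The genotypes were apart in females and overlapped in males. The median of this list was 0.045 without nmrHAS2 male 3, 0.084 without nmrHAS2 female 1, 0.085 without nmrHAS2 male 2, 0.098 without CreER female 3 and -0.059 with the pancreatic covariate. Cd44, the main receptor, had a log2 change of -0.19 ± 0.27. Of 25 fibrillar collagen and matrix genes none reached an unadjusted p under 0.05, and their median was 0.13.

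Lum and Col14a1, both matrix genes of fibroblasts, had log2 changes of 0.61 ± 0.21 and 0.63 ± 0.22 (unadjusted p = 0.0096 and 0.010). Col14a1 was at 89.5 to 166 CPM in the nmrHAS2 group and 43.5 to 132 CPM among CreER libraries. The list of progenitor and fibroblast markers had a median of 0.24, with 11 of 15 above 0 and none called, and the median was 0.13 without CreER male 1 and 0.15 without nmrHAS2 female 2.

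Cell cycle arrest and senescence genes had 2 of 18 above 0 and a median of -0.18, with none called. The median was -0.11 without nmrHAS2 male 3 and -0.030 without CreER male 1. Cdkn1a, the cell cycle inhibitor p21, had 13.9, 14.2 and 9.39 CPM in nmrHAS2 females and 23.3, 31.4 and 30.6 CPM in CreER females. In males it had 29.6, 25.1 and 35.3 CPM in nmrHAS2 and 25.1, 33.0 and 25.6 CPM in CreER libraries. The genotypes were apart in females and overlapped in males (log2 over both sexes -0.54 ± 0.14, adjusted p = 0.40).

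Whether the genotype difference differed between females and males was tested for every gene. In edgeR none was called, with 741 genes (3.51%) at an unadjusted p under 0.05, and DESeq2 called 62. In edgeR the smallest p-values belonged to Hp, Serpina3m, Gnb3, Rasd1 and Serpina3n. Hp, the haemoglobin-binding acute phase protein haptoglobin, had 206, 216 and 196 CPM in nmrHAS2 females, against 669, 1039 and 1149 CPM in CreER females. In males it had 1402, 2527 and 1902 CPM in nmrHAS2 and 1136, 729 and 1427 CPM in CreER libraries. Thus nmrHAS2 females were lower without overlap and nmrHAS2 males overlapped with CreER males (difference between sexes -3.04, adjusted p = 0.15 in edgeR and 1.1e-06 in DESeq2). Serpina3n, an acute phase protease inhibitor, had 65.0 to 79.5 CPM in nmrHAS2 females and 162 to 345 CPM in CreER females. In males it had 135 to 432 CPM in the nmrHAS2 group and 121 to 156 CPM among CreER libraries.

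Transcripts that glucocorticoids induce, looked at after the sexes had been compared, also differed in direction. Their median log2 change was -1.13 in females and 0.13 in males, over 12 genes, against 0.012 and 0.0077 for all genes. The list was chosen after its values were seen, so these values are a description. Tsc22d3, the glucocorticoid-induced leucine zipper, had 111, 127 and 142 CPM in nmrHAS2 females and 284, 309 and 334 CPM in CreER females. In males it had 281, 234 and 270 CPM in nmrHAS2 and 156, 112 and 217 CPM in CreER libraries. The genotypes did not overlap in either sex and lay in opposite order, and the difference between the sexes was -1.98 (adjusted p = 0.38). Separation with nmrHAS2 lower was seen in 4.49% of all genes in females, and with nmrHAS2 higher in 3.45% in males. The metallothionein Mt2 had 31.5, 36.8 and 16.6 CPM in nmrHAS2 females and 121, 317 and 359 CPM in CreER females. In males Mt2 had 57.0, 106 and 50.1 CPM in nmrHAS2 and 50.6, 56.1 and 57.9 CPM in CreER libraries, which overlapped.

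The same comparison in WAT at 6 months gave other genes. There 21 genes (0.0995%) were called higher and 1 lower (0.00474%), together 0.104%, with 1328 (6.29%) at an unadjusted p under 0.05, and the transgene was called again (log2 2.49 ± 0.38, adjusted p = 0.024). The libraries labelled CreER females at 6 months also held transgene reads, 89, 106 and 50 counts or 1.29, 1.27 and 0.663 CPM before TMM scaling. That is below the nmrHAS2 females of that age (2.54 to 6.01 CPM), but above the CreER males of that age (0.181 to 0.260 CPM) and all CreER libraries at 24 months (at most 0.431 CPM), and it overlaps with nmrHAS2 male 2 at 6 months (1.06 CPM). The source of these reads was not tested. The skeletal muscle list had a median log2 change of 0.20 at 24 months and 4.17 at 6 months, and the acinar list one of 10.7 at 24 months and 0.01 at 6 months. Per3 had a log2 change of 0.93 at 24 months and 0.04 ± 0.15 at 6 months, and Nfkbiz one of -0.63 at 24 months and -0.05 ± 0.12 at 6 months. The difference between the ages did not pass for either gene (adjusted p = 0.38 and 0.58). For the whole table edgeR called no gene for a difference between ages, with 1287 genes (6.10%) at an unadjusted p under 0.05, and DESeq2 called 115. Among the genes with the smallest p-values of that test were Gpr176 (log2 -1.16 at 24 months and 0.60 at 6 months) and the muscle protein titin, Ttn (-0.70 at 24 months and 4.28 at 6 months). Neither passed (adjusted p = 0.19 for both). Dio2 had a log2 change of 3.02 at 24 months and -2.64 at 6 months. The kinds of library differ between the ages and, at 6 months, between the sexes. RNAs without a poly(A) tail held 0.00142 to 0.00228% of counts in young males, 13.5 to 18.2% in young females and 11.04 to 19.0% in the 24-month libraries. In young females 63.5 to 68.0% of values were not whole numbers, against 28.5 to 29.1% in young males.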

How the data were processed

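Per the labels, total RNA was extracted from pulverized frozen tissue with Trizol, digested with DNase and cleaned on columns. Per the submitters' processing notes, the authors used Trim Galore 0.6.5 and Salmon 1.4.0. Neither genome build nor annotation is stated there; in the sources used here they are not given. The deposited table holds the authors' expected counts for 40946 genes, which were rounded to whole numbers, and 0 columns lacked a sample. Samples were grouped by their titles.

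All 24 WAT libraries were fitted with 8 group means in edgeR 4.0.16 (R 4.3.3): TMM scaling, filterByExpr, the quasi-likelihood F test and Benjamini-Hochberg adjustment over all genes tested, 2-sided, threshold 0.05. Fitting both ages gives more degrees of freedom than the 24-month libraries alone. A standard error is the absolute log2 change over root F. The fit was tested on simulated data. DESeq2 1.42.0 and the alternatives described in the closing section were also run.

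The genes named were the called ones; the 10 higher and 10 lower uncalled genes with the smallest p, the same sign in both sexes and at least 1 CPM; up to 3 members of each of 46 lists; the 5 smallest p of each difference between sexes or ages; and defining markers. Unnamed models (2210010C04Rik was named as one of few), pseudogenes, antigen receptor segments and sex-linked markers were left out. Members and lists were chosen with earlier results of these data known, and the clock list, the glucocorticoid list and the further genes described with them after their values were seen. Promoters come from RefSeq GRCm38.p6, matched by symbol (29948 symbols of the table matched RefSeq genes). V segments needed a mean of 20 counts, and other genes in that check 10 CPM.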

Additional observations from a re-analysis of the deposited data

Results flagged for a closer look

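In 108 checks of a level within 1 genotype at 24 months (lists and 6 genes, log2 CPM), 11 had 1 library apart from the other 5 by Dixon's test, where chance flags about 1 in 20. Several of these libraries recur. In nmrHAS2 female 3 the summed level was 519 CPM for hyaluronan receptors and binding proteins (885 to 991 CPM in the other 5 nmrHAS2 libraries), 4052 CPM for fibrillar collagen and matrix genes (7798 to 10080 CPM), 466 CPM for proliferation genes (200.3 to 244 CPM) and 589 CPM for glucocorticoid targets (1485 to 2025 CPM). In nmrHAS2 male 2 the nerve and Schwann cell markers summed to 221 CPM (159 to 174 CPM in the others).

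Among CreER libraries, male 1 had 109.5 CPM of mast cell and eosinophil markers (66.4 to 78.6 CPM in the others) and 9040 CPM of lipid synthesis genes (19810 to 29200 CPM). CreER male 2 had 1567 CPM of B cell and plasma cell markers (5307 to 6773 CPM). CreER male 3 had 59.2 CPM of erythroid markers (625 to 1550 CPM). CreER female 1 had 5656 CPM of oxidative phosphorylation genes (4199 to 4652 CPM), and CreER female 3 had 0.398 CPM of the transgene (0.0984 to 0.173 CPM in the others).

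Gnb3, a G protein subunit, lay in opposite order in the sexes without overlap, at 0.83, 0.84 and 40.9 CPM in nmrHAS2 females and 0.44, 0.63 and 0.52 CPM in CreER females, against 0.16, 0.06 and 0.03 CPM in nmrHAS2 males and 0.54, 0.30 and 2.61 CPM in CreER males. The fitted difference between the sexes was 8.46 on the log2 scale (adjusted p = 0.32 in edgeR), and the high female value is that of 1 library.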

How the results depend on the processing

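Of the 34 genes called at 24 months (6 outside the acinar list), RLE size factors, no filter on low counts and library kind as a term left between 33 and 36. A fit of the 24-month libraries alone called 0 (844 at an unadjusted p under 0.05), removal of the acinar genes before scaling 2, females alone 3 and males alone 0 (589 at an unadjusted p under 0.05). Outside the acinar list these settings gave 0, 2, 3 and 0 genes. Chosen after seeing the data, leaving out the 3 pancreas-rich libraries called 7 and summing the alike libraries 1, also outside the list. With the pancreatic level as a covariate 31 genes were called, all outside the list, and 2705 had an unadjusted p under 0.05. This covariate is the log2 summed level of the acinar list itself, so list members could hardly be called there. That level was above every CreER library in all nmrHAS2 libraries but female 3, so fits with this covariate can hardly separate it from the genotype. DESeq2 called 112, of which 81 were outside. Leaving out 1 library gave 1 to 48 genes in all and 1 to 16 outside the list. The both-sex comparison could not be made without all libraries over 100 CPM of pancreatic transcripts, since no nmrHAS2 male would remain.

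For the difference between sexes (0 genes), the covariate called 1, leaving out the 3 pancreas-rich libraries 17, DESeq2 62, and leaving out 1 library 0 to 4. For the 22 genes at 6 months, the young libraries alone called 0 (1485 at an unadjusted p under 0.05), removal of libraries over 100 CPM 0 (1428), DESeq2 87, and leaving out 1 library 0 to 35. For the difference between ages (0 genes), the covariate called 21, DESeq2 115, and leaving out 1 library 0 to 4. The cause of these changes was not tested.

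Same-numbered libraries of the genotypes did not deviate together in every pair (correlations of -0.02 to 0.43 in females and -0.07 to 0.41 in males at 24 months, 0.23 to 0.42 in females and -0.09 to 0.16 in males at 6 months). Only the 6-month females had every correlation over 0.1, so the numbers were not taken as pairs in the comparisons over both sexes. With a replicate block 43 genes were called at 24 months, 15 outside the list, with 4 at 6 months and 5 between ages.

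Direction changed in 4 fits of named genes: Slc39a5 with the covariate (-0.35) and without the 3 libraries (-0.0030), Cckar with the covariate (-2.78) and the age difference of Amy2a4 with it (-2.09). Amy2a4 is part of that covariate, and Slc39a5 and Cckar followed the same libraries. For changes at 24 months of named genes, 628 fits kept their side of the threshold, 105 lost a call and 27 gained one. List medians moved by under 1 SD between libraries in 1053 fits and by more in 75. With 3 libraries per group, of which some are alike, and levels under 3 counts per library (0.031 to 0.10 CPM) undetectable, small changes could not be shown here.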
